A study of Mus musculus with 28 samples.

Results

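The comparison described here is the second day after a medium change in cultures of the K-ras line in ample glucose. NIH3T3 cells are an immortalised mouse embryonic fibroblast line, and a second line is labelled NIH3T3 K-ras and called K-ras below. RNA of the K-ras line at 25 mM glucose was taken 48 h after a medium change (2 arrays) and compared with RNA of the same line and medium taken 24 h after it (2 arrays). These 4 arrays were chosen by their titles from the 28 of the series, which has 14 groups of 2 arrays each over 2 cell lines, 25 or 1 mM glucose and 0 to 72 h. The same interval in the parental line, NIH3T3 at 25 mM glucose at 48 h (2 arrays) against 24 h (2 arrays), serves for comparison. All groups had 4 mM glutamine in the medium and newborn calf serum in the routine growth medium, and the medium was changed 18 h after seeding. The labels number the 2 arrays of a group as biological replicates. They do not say how the K-ras line was made or whether it is 1 clone. The study was about how the 2 lines answer to glucose supply; the comparison of times at 1 glucose level follows the culture itself.

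Ras proteins pass growth factor signals to the MAP kinase cascade, which drives immediate early genes, cyclin D1 and a set of feedback inhibitors such as the Sprouty and dual-specificity phosphatase genes. Normal fibroblasts leave the cell cycle when they become crowded or when serum factors run down, and resting fibroblasts are known for higher expression of matrix genes and of FOXO targets and lower expression of replication, mitosis and ribosome production genes. Cells transformed by Ras are known for continued growth under such conditions and for low expression of some matrix and contractile genes.

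Every value below is a log2 ratio of a gene to its own median over the 28 arrays, so groups can be compared for 1 gene, but levels cannot be compared between genes. Differences are log2 fold changes, 48 h minus 24 h, with the standard error of a limma fit to 18 arrays, and a gene was called where its adjusted p, by the Benjamini-Hochberg method over 18193 genes, was under 0.05. The p-values measure the spread between 2 cultures a group, and that number limits the precision.

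All 4 arrays were those of K-ras cells by their marker genes. Il33, an alarmin cytokine that marks this line among the arrays, was at 3.09 and 2.84 at 48 h, against 2.24 and 2.05 at 24 h, and Krt14, a basal keratin that marks the NIH3T3 arrays, was at -4.38 and -4.22, against -4.40 and -4.58. Over the whole series 22 arrays matched their labelled line by these markers and 6 matched the other line. None of these 6 was in the groups compared, but their 5 groups were kept out of the fit, since the difference between their replicates holds the difference between the lines. Over all genes the 48 h arrays correlated with each other at 0.71 and the 24 h arrays at 0.34. Replicate 2 at 24 h correlated with replicate 2 at 48 h at 0.60, which is higher than with its own replicate. The spike-in control bioC was at 0.47 and 0.59 at 48 h, against -0.27 and 0.49 at 24 h, and bioB at 0.21 and 0.30, against -0.61 and 0.21, so replicate 1 at 24 h was the lowest of the 4 on both. The part of this difference in the results was not tested. Replicate 1 of K-ras at 72 h, which enters the fit only through the estimate of spread, stands apart with a bioC value of 2.92.

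Only 6 genes were called in the K-ras line between 48 and 24 h, which is 0.033% of the 18193 tested. All 6 rose. No gene was called lower, and limma gave 291 lower genes (1.6%) at an unadjusted p under 0.05 beside 507 higher ones (2.79%). The 798 genes together are 4.39% of those tested, and 910 would have such a p by chance. After quantile normalisation of the same values the calls were 56, of which 32 rose and 24 fell, and 4 of the 6 were among them. No gene was called without replicate 1 at 24 h, without replicate 2 at 24 h or without replicate 1 at 48 h, and 35 were called without replicate 2 at 48 h. With all 28 arrays in the fit, or with only the arrays of the groups compared, limma also called 0 genes (444 and 1997 at an unadjusted p under 0.05). The 6 calls were all among the 35 made without replicate 2 at 48 h, and none was made without any 1 of the other 3 K-ras arrays.

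**Figure D1:**
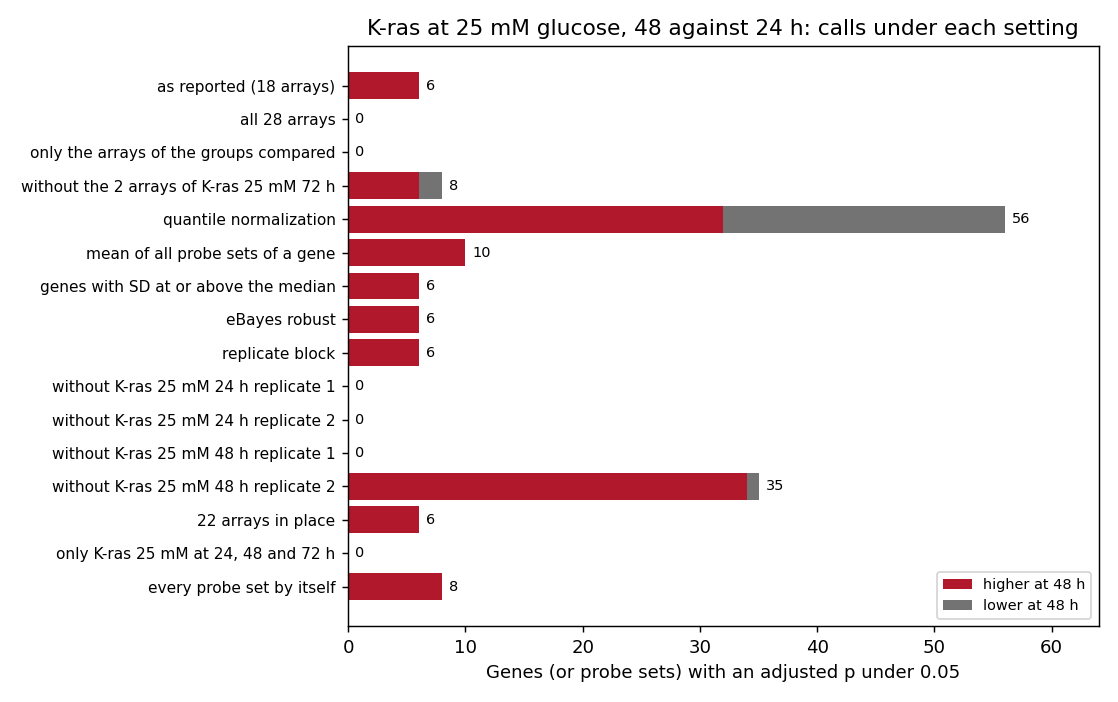
Number of genes with an adjusted p under 0.05 for K-ras at 25 mM glucose, 48 against 24 h, under each setting of the fit; red bars count genes higher at 48 h and grey bars genes lower at 48 h, and the last setting counts probe sets. The 6 genes reported rose, while the counts run between 0 and 56 over the settings.

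Dio2 had the largest log2 fold change of the 6. It encodes the type 2 deiodinase, a selenoenzyme that turns thyroxine into the active thyroid hormone inside cells and is known as a gene induced by cyclic AMP. Dio2 was at 3.93 and 3.29 at 48 h, against 0.27 and 0.64 at 24 h, and at 3.47 and 3.03 at 72 h, so both later times lay well above 24 h and the groups did not overlap. The log2 fold change was 3.15 ± 0.34 (adjusted p = 0.00773). In NIH3T3 it was at -0.56 and -0.70 at 48 h, against -0.45 and 0.00 at 24 h. Dio2 has 3 probe sets on the array and the weakest of them gave a log2 fold change of 0.11, so the rise is not shared by all of them.

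The 250 bases before the annotated start of Dio2 are shown because they hold a perfect cyclic AMP response element, the palindrome bound by CREB family factors. The sequence is from RefSeq (GRCm38.p6, chr12:90739039-90739288, minus strand, read 5′ to 3′). Capitals mark the cyclic AMP response element, which starts 95 bases before the start, and a TATA box, which starts 30 bases before it.
Dio2: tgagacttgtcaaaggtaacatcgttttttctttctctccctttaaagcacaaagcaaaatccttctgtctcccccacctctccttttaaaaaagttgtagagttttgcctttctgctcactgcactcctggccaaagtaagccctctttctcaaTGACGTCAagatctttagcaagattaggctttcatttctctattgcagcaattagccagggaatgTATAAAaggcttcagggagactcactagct
The element was searched as TGACGTCA, its own reverse complement, and is held by 1.8% of the 27025 genes with a promoter in the table. TATAAA, searched on both strands, is held by 14.3% of them. An AP-1 site (TGANTCA) was searched as well and had no match in this window. The matches describe the letters of the window, and no binding was measured.

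The other genes called are of the cell surface, the extracellular space and aldehyde metabolism. Aldh3a1, an aldehyde dehydrogenase that oxidises lipid-derived aldehydes, was at 3.29 and 2.19 at 48 h, against 0.14 and -0.06 at 24 h (log2 fold change 2.70 ± 0.36, adjusted p = 0.0169). Sparcl1, also called hevin, is a secreted matricellular glycoprotein related to SPARC. It was at 3.32 and 2.28 at 48 h, against 0.73 and 0.49 at 24 h (2.19 ± 0.32, adjusted p = 0.0406). Lrrc17, a secreted leucine-rich repeat protein, was at 1.96 and 2.36 at 48 h, against 0.06 and 0.22 at 24 h (2.02 ± 0.25, adjusted p = 0.0106). The second of its 2 probe sets gave 0.02. Dkk3, a secreted glycoprotein of the Dickkopf family, was at 3.54 and 3.58 at 48 h, against 1.33 and 1.92 at 24 h (1.93 ± 0.26, adjusted p = 0.0169). In each of these genes the lower 48 h array stood above the higher 24 h array by more than the distance between replicates at 24 h.

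Tmem176a and Tmem176b are neighbouring genes that encode related membrane proteins of the MS4A-like family, best known from dendritic cells. Tmem176a was at 3.48 and 2.91 at 48 h, against 1.62 and 1.34 at 24 h (1.71 ± 0.20, adjusted p = 0.0106), and its 3 probe sets gave 1.55 to 1.75. Tmem176b was at 3.18 and 2.64 at 48 h, against 1.55 and 1.53 at 24 h, a log2 fold change of 1.37 ± 0.22 that did not pass (adjusted p = 0.0713). In RefSeq (GRCm38.p6) the genes lie head to head on chromosome 6. The windows of 250 bases before the 2 annotated starts of Tmem176a, on the plus strand, are chr6:48841233-48841482 and chr6:48841406-48841655, and those of Tmem176b, on the minus strand, run between 48840989 and 48841624, so the promoters overlap. None of these windows held a match to the motifs searched for these genes, which were the TATA box, the CCAAT box (CCAAT) and the AP-1 site (TGANTCA).

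By the rule that filled the list up to 12 genes, the next rises in order of unadjusted p after Tmem176b were Tle5, Fam114a1, Cemip, Crabp1 and Mrgprf, none of which passed (adjusted p between 0.0713 and 0.103). Cemip, which takes part in breaking down hyaluronan, was at 2.74 and 1.75 at 48 h, against -0.18 and -0.31 at 24 h, with a weakest probe set at 0.00. Crabp1, a cellular retinoic acid binding protein, was at 3.85 and 3.18, against 2.19 and 2.26. Mrgprf, an orphan G protein-coupled receptor, was at 1.30 and 0.60, against -1.49 and -1.07. Tle5, a shortened relative of the Groucho corepressors, was at 1.23 and 0.65, against -0.36 and -0.53.

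The rule for falls took the 12 non-overlapping genes with the smallest unadjusted p for a lower value at 48 h, clone-like symbols aside. Their adjusted p lay between 0.303 and 0.503. U90926, passed over for its clone-like symbol and described at the end, had a smaller adjusted p and was not called either. Spry4, a Sprouty inhibitor induced by the MAP kinase pathway, was at 0.56 and 0.64 at 48 h, against 1.94 and 1.70 at 24 h, although the weakest of its 4 probe sets gave 0.13. Ptgs2, the inducible cyclooxygenase, was at -1.66 and -0.93, against -0.03 and 0.37. Denr, a factor that recycles ribosomes and restarts translation, was at 0.03 and 0.05, against 1.08 and 1.06, so its replicates were very close at both times. The other 9 were Chd1l, Coq10b, Trappc13, Dyrk3, Mtmr10, Krt12, Slc22a4, Wdr3 and Timm8a1, with log2 fold changes between -1.21 and -0.61. The weakest probe sets of Trappc13 and Krt12 gave -0.21 and -0.07.

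**Figure D2:**
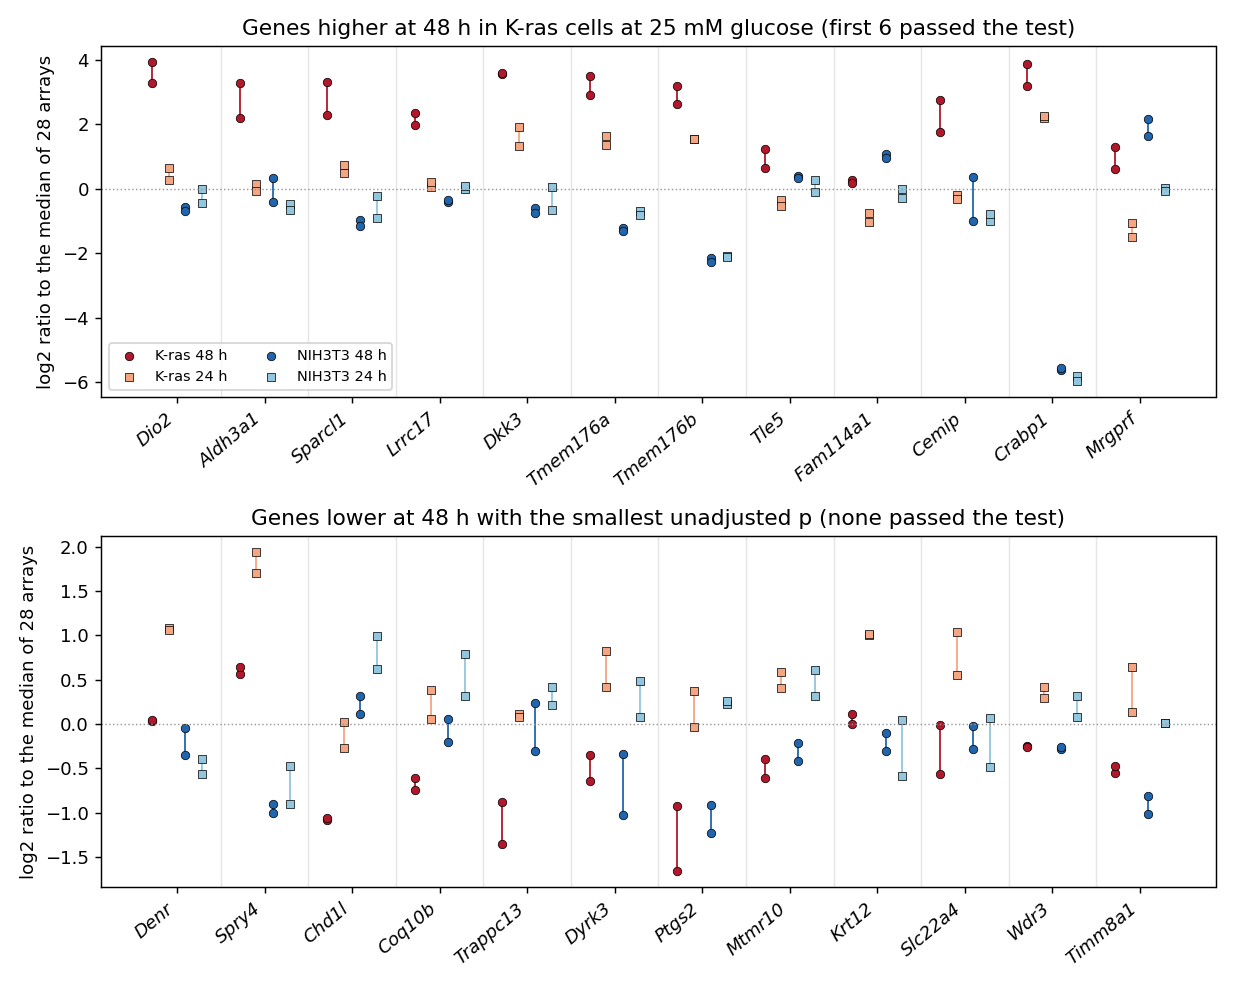
Log2 ratio to the median of 28 arrays for the 12 genes higher and the 12 lower at 48 h in K-ras cells, by the naming rule; each point is 1 array and a line joins the 2 replicates, for K-ras at 48 h and 24 h (red and orange) and NIH3T3 at 48 h and 24 h (dark and light blue). The first 6 genes of the upper panel passed the test, and in Dio2 the K-ras arrays were at 3.93 and 3.29 at 48 h, against 0.27 and 0.64 at 24 h.

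Gene lists of pathways and cell types are described by how many members had both 48 h arrays above, or both below, both 24 h arrays. Over all 18193 genes, 19.8% lay above in this sense and 22.2% below, and the median change of all genes was -0.01. For the change in K-ras, the only 1 of the 39 pathway lists with a called member was that of matrix proteoglycans and glycoproteins, through Sparcl1.

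**Figure D3:**
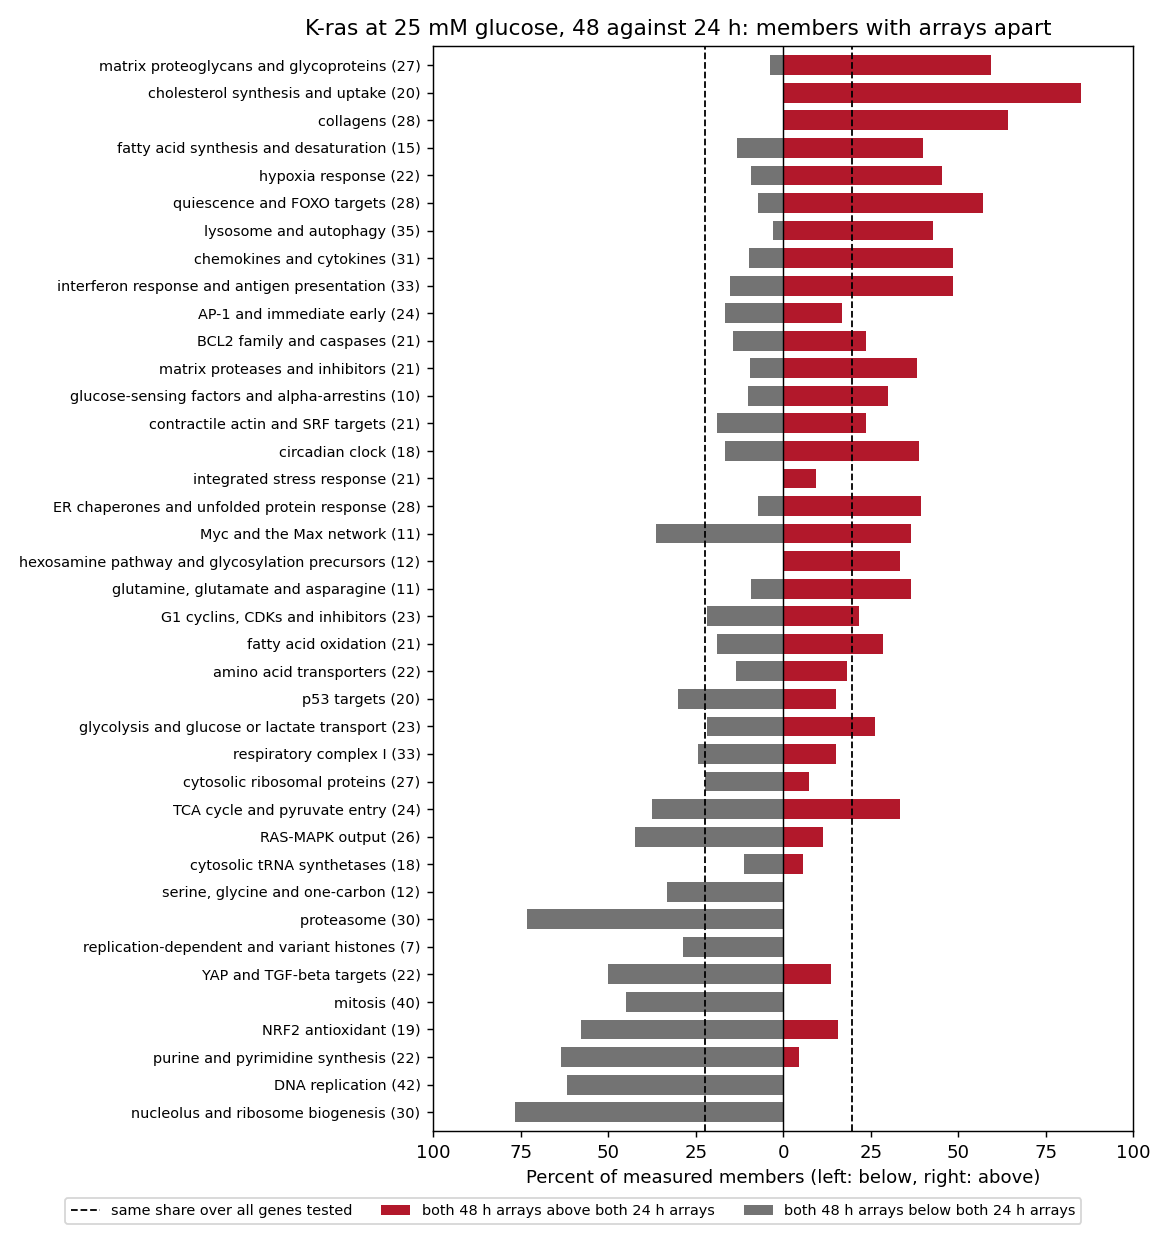
Percent of the measured members of each of 39 gene lists (number measured in brackets) with both 48 h arrays above (red, to the right) or below (grey, to the left) both 24 h arrays of K-ras at 25 mM glucose, in order of the list's median change. Dashed lines give the shares over all 18193 genes, 19.8% above and 22.2% below; cholesterol synthesis reached 85.0% above and nucleolar genes 76.7% below.

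The extracellular matrix held some of the widest differences. Of 27 matrix proteoglycans and glycoproteins, 16 lay above (59.3%) and 1 below, with a median of 0.82, and 26 of the 27 had a positive change. Sparcl1 was the member called. The median was 0.49 with the mean of all probe sets of each gene, 0.41 without replicate 1 at 48 h and 0.99 without replicate 2. Of 28 collagens and collagen-modifying enzymes, 18 lay above (64.3%) and 0 below, with a median of 0.51 that was 0.32 without replicate 1 at 48 h and 0.67 without replicate 2. Col6a1 and Col6a2, which encode chains of the beaded-filament collagen VI, gave 1.38 ± 0.32 and 1.34 ± 0.28 (adjusted p = 0.347 and 0.262). Col6a1 was at 0.61 and 0.23 at 48 h, against -1.06 and -0.86 at 24 h, and Col6a2 at 0.35 and 0.03, against -1.15 and -1.16. Col3a1, the chain of fibrillar collagen III, was at 2.57 and 1.05, against -0.52 and -0.52, so the 2 arrays at 48 h were far from each other. Among 21 matrix proteases and inhibitors 8 lay above and 2 below. Mmp19 was at 1.70 and 0.70 at 48 h, against -0.23 and 0.08 at 24 h, while Serpinb2, an inhibitor of plasminogen activators, was at -0.87 and -0.73, against 0.66 and 0.17.

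The cholesterol synthesis list had the largest share of members apart in 1 direction. The pathway turns acetyl-CoA into mevalonate and then into sterols, and its genes are known targets of SREBP2, a membrane-bound factor released when sterols are low. Of 20 members measured, 17 lay above (85.0%) and 0 below, and all 20 had a positive change, between 0.21 and 1.58 with a median of 0.62. None was called, and 6 had an unadjusted p under 0.05. Tm7sf2, a sterol reductase, was at 2.56 and 1.13 at 48 h, against 0.28 and 0.27 at 24 h (1.58 ± 0.57). Fdps, which makes farnesyl diphosphate, the lipid used to prenylate Ras proteins, was at 1.22 and 0.63, against -0.21 and 0.11 (0.97 ± 0.23, adjusted p = 0.387), and its weaker probe set gave 0.09. Mvd, the mevalonate diphosphate decarboxylase, was at 1.23 and 0.30, against -0.06 and -0.30 (0.95 ± 0.31). Hmgcs1, the synthase of the first committed part of the pathway, was at 0.44 and 0.27, against 0.01 and -0.01 (0.35 ± 0.45). Replicate 1 at 48 h was the higher in each of these genes. The list median was 0.29 without that array and 0.84 without replicate 2 at 48 h.

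Promoters are shown for Tm7sf2, Mvd and Hmgcs1 because every list member with an entry shared a motif. Of the 20 members, 16 had a promoter in the RefSeq table, and all 16 held at least 1 CCAAT box (CCAAT, both strands), the site bound by the factor NF-Y, a known partner of SREBP. The share over all 27025 genes was 37.5%, in the collagen list it was 42.9% and in the nucleolar list 24.0%. A sterol regulatory element, searched as TCACNCCAC on both strands, was in 1 of the 16, against 1.2% of all genes, and SREBP also binds other letters that were not searched. The windows are the 250 bases before the start in GRCm38.p6, read 5′ to 3′ on the strand of the gene, with CCAAT boxes of either strand and the sterol regulatory element in capitals: Tm7sf2 at chr19:6067851-6068100 (minus strand), Mvd at chr8:122443423-122443672 (minus strand) and Hmgcs1 at chr13:119690101-119690350 (plus strand).
Tm7sf2: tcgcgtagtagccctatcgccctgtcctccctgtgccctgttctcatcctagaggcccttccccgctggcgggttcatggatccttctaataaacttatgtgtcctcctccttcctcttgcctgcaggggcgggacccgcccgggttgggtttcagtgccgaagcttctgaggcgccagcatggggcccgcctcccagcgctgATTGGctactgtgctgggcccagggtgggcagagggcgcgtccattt
Mvd: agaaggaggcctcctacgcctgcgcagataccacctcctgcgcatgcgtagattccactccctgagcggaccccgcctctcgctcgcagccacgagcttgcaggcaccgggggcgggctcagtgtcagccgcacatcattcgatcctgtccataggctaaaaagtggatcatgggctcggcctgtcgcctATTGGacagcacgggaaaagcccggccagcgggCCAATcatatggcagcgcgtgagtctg
Hmgcs1: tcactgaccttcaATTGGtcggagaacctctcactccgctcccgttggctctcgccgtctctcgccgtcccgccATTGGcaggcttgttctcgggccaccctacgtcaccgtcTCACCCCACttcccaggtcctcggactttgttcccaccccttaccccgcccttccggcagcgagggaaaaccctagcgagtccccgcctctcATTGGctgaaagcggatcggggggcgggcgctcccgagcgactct
Hmgcs1 held the sterol regulatory element, which starts 137 bases before its start, and 3 CCAAT boxes. Mvd held 2 CCAAT boxes and Tm7sf2 held 1. The motif was picked with earlier results of these data known. It is not particular to genes with higher values at 48 h: it was in 25 of 33 mitosis genes (75.8%) and 22 of 35 DNA replication genes (62.9%) with a promoter, lists with no member above.

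Lipid synthesis beyond sterols was mixed. Among 15 genes of fatty acid synthesis and desaturation 6 lay above and 2 below, with a median of 0.42. Acss2, which makes acetyl-CoA from acetate, was at 2.09 and 0.64 at 48 h, against -0.04 and 0.03 at 24 h. Scd1, a stearoyl-CoA desaturase, was at 1.02 and 0.37, against 0.00 and -0.12. The weakest probe sets gave 0.06 for Acss2 and -0.20 for Scd1. The median was 0.03 without replicate 1 at 24 h, so this list depends on that array.

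Genes of growth and division had lower values at 48 h. The list of nucleolus and ribosome biogenesis had 23 of 30 members below (76.7%) and 0 above, and all 30 changes were negative, with a median of -0.54 that stayed between -0.57 and -0.46 when any 1 array was left out. Rrp12, a factor of ribosomal subunit maturation and export, was at -1.26 and -0.66 at 48 h, against 0.04 and 0.14 at 24 h. Nhp2, a protein of the box H/ACA particles that modify ribosomal RNA, was at -0.56 and -0.37, against 0.71 and 0.28. Pno1, needed for the small subunit, was at -0.75 and -0.42, against 0.35 and 0.17 (-0.84 ± 0.24, adjusted p = 0.541). The cytosolic ribosomal proteins themselves had a median of -0.03, between -0.15 and 0.06 when any 1 array was left out, with 2 of 27 above and 6 below.

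Of 42 DNA replication genes 26 lay below (61.9%) and 0 above, with a median of -0.47, and of 40 mitosis genes 18 lay below (45.0%) and 0 above, with a median of -0.34. No member of either list had an unadjusted p under 0.05. Ccne2, cyclin E2, was at -1.39 and 0.30 at 48 h, against 0.92 and 0.62 at 24 h. Rrm2, the small subunit of ribonucleotide reductase, was at -1.02 and -0.05, against 0.35 and 0.42. Aurkb, the Aurora B kinase, was at -0.75 and -0.14, against 0.36 and 0.31. In all 3 genes replicate 1 at 48 h was far below replicate 2. Without replicate 1 at 48 h the list medians were -0.22 for DNA replication and -0.08 for mitosis, and without replicate 2 they were -0.67 and -0.62, so replicate 1 at 48 h carries most of the difference. For purine and pyrimidine synthesis 14 of 22 members lay below and 1 above (median -0.35), with Pfas at -0.60 and -0.45 at 48 h, against 0.21 and 0.22 at 24 h.

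Of 30 proteasome subunits 22 lay below (73.3%) and 0 above, with a small median of -0.26 that was between -0.31 and -0.23 when any 1 array was left out. Psmc6, an ATPase of the base, was at -0.28 and 0.17 at 48 h, against 1.35 and 0.94 at 24 h (-1.20 ± 0.37, adjusted p = 0.654). Of 19 antioxidant genes of the NRF2 response 11 lay below and 3 above, with a median of -0.34. Gclm, the modifier subunit of the enzyme that limits glutathione synthesis, was at -0.41 and 0.01, against 1.03 and 0.63, and Nqo1, a quinone reductase, at -1 and -0.01, against 0.68 and 0.35. Gstm1, a glutathione transferase, had a value in the other direction, at 0.61 and 0.23, against -0.96 and -0.93, with a weakest probe set at 0.24.

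Genes of resting cells and of lysosomes had more members above than the background. Of 28 quiescence and FOXO target genes 16 lay above (57.1%) and 2 below. Their median of 0.29 was between 0.25 and 0.45 when any 1 array was left out. Gas1, a growth arrest protein of the cell surface, was at 1.43 and 1.24 at 48 h, against -0.53 and 0.11 at 24 h, though its weakest probe set gave 0.00. Sesn3, a sestrin, was at 1.64 and 0.93, against -0.04 and 0.08, and Mxd4, an antagonist of Myc, at 0.99 and 0.59, against -0.65 and -0.25. Myc was at -0.27 and -0.34, against 0.25 and -0.09 (-0.38 ± 0.45), and Odc1, a Myc target that begins polyamine synthesis, at -0.35 and -0.17, against 0.94 and 0.71. The G1 list was even, with 5 of 23 above and 5 below. Ccnd1, cyclin D1, was at 0.54 and 0.77 at 48 h, against -0.88 and 1.53 at 24 h, so the 24 h arrays enclose the 48 h arrays, and Cdkn1a, the p21 inhibitor, was at -0.11 and -0.38, against -0.13 and -0.20. Of 35 lysosome and autophagy genes 15 lay above (42.9%) and 1 below, with a median of 0.25 that was 0.07 without replicate 1 at 48 h, 0.38 without replicate 2 and 0.15 without replicate 2 at 24 h. Map1lc3a, an autophagosome protein, was at 1.04 and 0.04 at 48 h, against -0.66 and -1.11 at 24 h (1.42 ± 0.31, adjusted p = 0.273).

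Secreted inflammatory genes had some of the largest values with the widest spread. Of 31 chemokines and cytokines 15 lay above (48.4%) and 3 below, with a median of 0.24. Ccl8, a chemokine for monocytes, was at 4.49 and 1.61 at 48 h, against 0.20 and -0.09 at 24 h (2.99 ± 0.78, adjusted p = 0.467). Saa3, serum amyloid A3, was at 3.71 and 1.66, against 0.35 and -0.34 (2.68 ± 0.51, adjusted p = 0.156), and Il6 at 3.65 and 0.93, against 0.39 and 0.59 (1.80 ± 0.66). All 3 were far higher in replicate 1 than in replicate 2, and both were above 24 h. Il33 gave 0.83 ± 0.23 (adjusted p = 0.531). Cebpb, a transcription factor of the acute-phase response, was at 1.70 and 0.95 at 48 h, against -0.03 and -0.25 at 24 h. Of 33 interferon response and antigen presentation genes 16 lay above (48.5%) and 5 below. Their median of 0.23 was between 0.16 and 0.35 when any 1 array was left out. Gbp2, a guanylate-binding protein, was at 1.57 and 1.57, against 0.03 and -0.02. Of 13 leukocyte markers measured, 2 lay above and 2 below, and the median level of the list was between -0.08 and 0.04 in all 4 arrays. Endothelial, epithelial, fat cell and skeletal muscle markers had medians of change between -0.06 and 0.07. Fabp4, a fatty acid binding protein of fat cells and macrophages, stood apart from its list at 3.42 and 2.08 at 48 h, against 1.48 and 1.14 at 24 h, with a weakest probe set of -0.19. Myh1, a myosin heavy chain of skeletal muscle, did so at 2.47 and 1.05, against 0.66 and 0.21, with a weakest probe set of -0.23, and neither gene was called. The part of these markers in the results was not tested. The 12 fibroblast markers had 8 above and 0 below, with a median of 0.81, and share several matrix genes with the lists above.

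Targets of Ras signalling had more members below than the background, in NIH3T3 (given further below, with its own background) as in K-ras. Of 26 RAS-MAPK output genes 11 lay below (42.3%) and 3 above, with a median of -0.05 that was -0.26 without replicate 1 at 24 h, -0.17 without replicate 2 at 48 h and -0.09 without replicate 1 at 48 h. Beside Spry4, Plaur, the urokinase receptor, was at -0.75 and -0.21 at 48 h, against 0.93 and 0.56 at 24 h, and Dusp5, a nuclear phosphatase of ERK, was at -0.34 and -0.18, against 0.24 and 1.37. The adjusted p was 0.818 for Plaur and 0.724 for Dusp5. Of the immediate early genes 4 of 24 lay above and 4 below. Fosl1, a Fos family factor stabilised by ERK, was at 0.04 and 0.13, against 0.77 and 0.50, and Dusp1, a phosphatase of the stress kinases, at -2.62 and -2.20, against -1.70 and -1.45. Of the genes that answer to cell contact and tension, 11 of 22 YAP and TGF-beta targets lay below (50.0%) and 3 above, with a median of -0.29. Ccn2, a matricellular YAP target, was at -1.35 and -0.52, against -0.08 and 0.21. Among 21 contractile and SRF target genes 5 lay above and 4 below, with Actg2, a smooth muscle actin, at -0.74 and -0.05, against 1.69 and 0.66, and Tagln, transgelin, at -0.63 and -0.67, against 0.54 and 0.14.

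Genes that read glucose and nutrients bear on the question of the study. Txnip, an alpha-arrestin induced by glucose through the MondoA factor, was at 1.78 and 0.41 at 48 h, against -1.79 and -0.48 at 24 h, a log2 fold change of 2.23 ± 0.86 that did not pass (adjusted p = 0.957). Arrdc4, its relative with the same known control, was at -0.02 and -0.28, against -0.52 and -0.43 (0.32 ± 0.44). Glycolysis was close to the background, with 6 of 23 above and 5 below and a median of 0.01, between -0.06 and 0.10 when any 1 array was left out. Slc2a1, the main glucose transporter of fibroblasts, gave -0.02 ± 0.40 and Hk2, hexokinase 2, gave -0.13 ± 0.55. Of 22 hypoxia response genes 10 lay above (45.5%) and 2 below, with a median of 0.41 that was 0.06 without replicate 1 at 48 h. Stc1, stanniocalcin, was at 2.24 and 1.73 at 48 h, against 0.48 and 0.81 at 24 h (1.34 ± 0.26, adjusted p = 0.193), with a weaker probe set at 0.04. The integrated stress response, which answers to a lack of amino acids, had 2 of 21 above and 0 below. The members above were Cebpb, described with the inflammatory genes, and Atf5, a transcription factor of this response, at 0.94 and 0.02 at 48 h, against -0.38 and -0.75 at 24 h. Of the members fixed by name, Trib3, a pseudokinase, was at 0.77 and -1.42 at 48 h, against 0.32 and -1.05 at 24 h, Ddit3 at 1.03 and -0.54, against 0.09 and -0.44, and Asns, asparagine synthetase, at -0.21 and -0.91, against -0.08 and -0.60, so in these the replicates of 1 time differed by more than the times did. Respiratory complex I had 5 of 33 above and 8 below, with a median of -0.03, between -0.10 and 0.03 when any 1 array was left out.

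The same day in NIH3T3 was set beside these values, with no array shared between the lines. In NIH3T3 167 genes were called between 48 and 24 h (0.918%), 134 higher (0.737%) and 33 lower (0.181%), and 131 higher and 72 lower after quantile normalisation. The count was 1696 without replicate 2 at 48 h and 2 without replicate 1, and the median of the mitosis list at 48 h was -2.17 in replicate 1 and 0.19 in replicate 2, so the NIH3T3 arrays at 48 h differ widely. The spike-in control bioC was at -2.34 and -1.64 in NIH3T3 at 48 h, against -0.83 and -1.11 at 24 h. For bioB the values were -1.30 and -0.39, against 0.25 and -0.00. Both controls were thus lower at 48 h, lowest in replicate 1, and their part in the results was not tested. The SD of the change over all genes was 0.36 in K-ras and 0.59 in NIH3T3, and the changes of the 18193 genes correlated between the lines at 0.32, given as a description across genes. Genes set apart by at least 1 log2 unit numbered 259 above and 73 below in K-ras, and 1015 above and 507 below in NIH3T3.

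The test of the difference between the lines called 2 genes, 0.011% of those tested, and 1258 had an unadjusted p under 0.05 (6.91%). For Dio2 the change in K-ras minus that in NIH3T3 was 3.56 (adjusted p = 0.0452), and for Tmem176a it was 2.24 (adjusted p = 0.0452). Tmem176a was at -1.23 and -1.31 in NIH3T3 at 48 h, against -0.69 and -0.80 at 24 h, so its arrays moved apart in opposite directions in the 2 lines. By limma its change in NIH3T3 alone did not pass (adjusted p = 0.218). For Lrrc17 (adjusted p = 0.0564), Dkk3 (0.0906), Sparcl1 (0.118) and Aldh3a1 (0.362) the difference did not pass, although the NIH3T3 changes of the first 3 were negative at -0.42, -0.37 and -0.48. The 2 calls of a difference were lost under the mean of all probe sets, the filter on genes of low spread, every probe set tested by itself, quantile normalisation, the replicate block, the fit to 28 arrays and the fit on the compared arrays alone, and without any 1 of 6 of the 8 arrays compared (all but replicate 2 at 48 h of either line).

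No member of a pathway list passed the test of the difference. For the change in NIH3T3 itself, limma called members of several of these lists. Among them 8 of 28 quiescence and FOXO genes and 1 of 20 cholesterol genes were higher, beside 0.737% of all genes. Lower were 2 of 30 nucleolar genes, beside 0.181% of all genes. The medians in K-ras and NIH3T3 were 0.62 and 0.51 for cholesterol synthesis, 0.51 and 0.44 for collagens, 0.82 and 0.27 for matrix proteoglycans, and -0.54 and -0.91 for nucleolar genes. For DNA replication they were -0.47 and -1.35, for mitosis -0.34 and -1.42, and for quiescence and FOXO targets 0.29 and 1.05. For the 26 RAS-MAPK output genes they were -0.05 and -0.66, with 11 members below in K-ras and 15 in NIH3T3. Over all genes 22.2% lay below in K-ras and 25.4% in NIH3T3. On the growth and quiescence lists the NIH3T3 values were thus farther from 0, with the spread between the NIH3T3 replicates given above. Ccnd1 gave 0.33 ± 1.00 in K-ras and -2.30 ± 1.00 in NIH3T3, Fosl1 -0.55 and -1.97, and Ccng2, a cyclin induced by FOXO factors, 0.24 and 2.44. Ccnd1 was at -2.91 and -0.19 in NIH3T3 at 48 h, so 1 array carries most of its value. By limma neither its change in NIH3T3 (adjusted p = 0.268) nor the difference between the lines (adjusted p = 0.779) passed. Fosl1 (adjusted p = 0.00882) and Ccng2 (adjusted p = 0.0282) were called in NIH3T3, and the difference between the lines did not pass for Fosl1 (adjusted p = 0.396) or Ccng2 (adjusted p = 0.514).

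**Figure D4:**
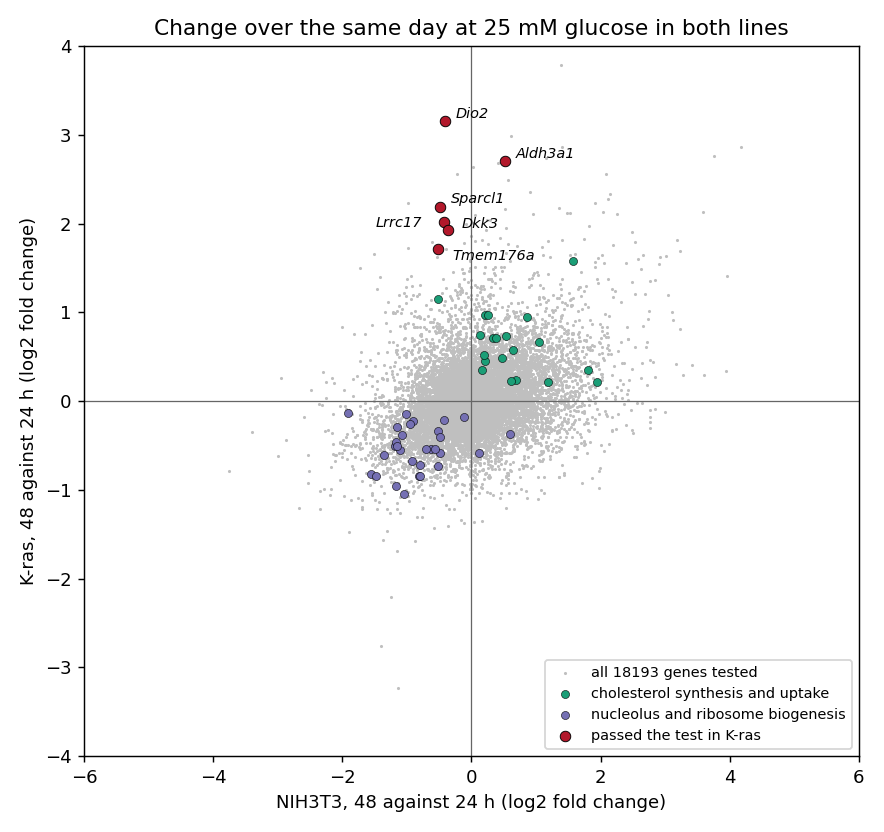
Log2 fold change between 48 and 24 h at 25 mM glucose for each of 18193 genes, K-ras on the vertical axis and NIH3T3 on the horizontal axis. The 6 genes that passed in K-ras (red) lie high with NIH3T3 changes between -0.52 and 0.52, cholesterol genes (green) lie above 0 in K-ras and nucleolar genes (purple) below 0.

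**Figure D5:**
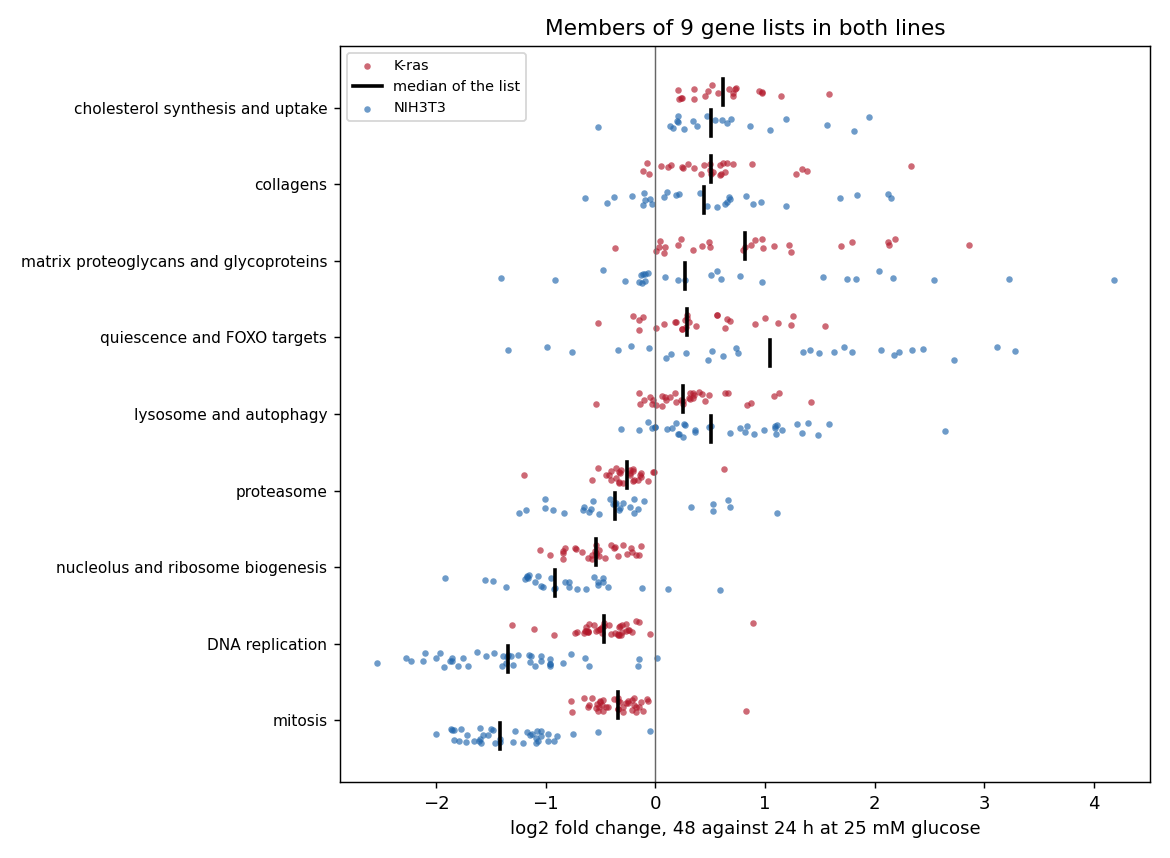
Log2 fold change between 48 and 24 h at 25 mM glucose of each member of 9 gene lists, K-ras (red, upper row) and NIH3T3 (blue, lower row); each point is 1 gene and a black bar marks the median. DNA replication has a median of -0.47 in K-ras and -1.35 in NIH3T3, and cholesterol synthesis 0.62 and 0.51.

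The 2 cultures at 48 h were not equally far from 24 h. Among the 259 genes set apart upward by at least 1 log2 unit, replicate 1 was the farther in 216 (83.4%), with a median distance to the 24 h mean of 1.63 for replicate 1 and 1.06 for replicate 2. Among the 73 set apart downward it was the farther in 62 (84.9%), with 1.36 and 0.95. Among the called genes Dkk3 differed by little between the 48 h arrays and Lrrc17 was higher in replicate 2, while the other 4 were higher in replicate 1.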

How the data were processed

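Total RNA of 28 cultures was hybridised to Affymetrix arrays, and the comparisons use 8 of them. Per the labels' protocols RNA was purified with Trizol and RNeasy columns. RMA is named in the submitters' processing notes, and no version is given in the sources used here. Deposited were log2 values of 45101 probe sets; tested on the table, each log2 value is relative to the median of its probe set over the 28 arrays (within 0.001), which removes levels and signal over background. Symbols came from the platform annotation: 34945 probe sets had 1 symbol, 932 several and 9160 none, and 64 were controls. The most variable probe set over 28 arrays, by SD, stood for each of the 9010 genes with more than 1, leaving 18193 genes. Detection calls and scan dates were not used.

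limma 3.58.1 in R 4.3.3 (lmFit, eBayes) was fitted to 18 arrays of 9 groups with 1 coefficient per group and 9 residual degrees of freedom, tested on simulated data. Benjamini-Hochberg adjustment was made within each of 3 contrasts. The 45 gene lists (39 of pathways, 6 of markers; 965 of 1049 entries measured), the comparison, its fit and the naming rule were chosen with earlier results of these data known. The rule named the 12 largest called rises and falls, filled by unadjusted p, up to 4 called or 3 non-overlapping members a list, the 5 largest called line differences each way, and 18 genes fixed by name, of which 15 were measured. For the rises, falls and line differences, symbols that were clone-like, of predicted genes or without a RefSeq match were passed over. A total of 161 genes were named by the rule. Where the weakest probe set of a named gene, those fixed by name aside, gave under 25% of the value or the other sign, it is stated. Alternatives were other sets of arrays, quantile normalisation, other uses of probe sets, a filter on spread, robust eBayes, a replicate block and leaving out each array. Promoters are RefSeq's; those of Sparcl1, Dkk3, Aldh3a1, Fdps and Rrp12 were not used here. Tables and figures were made with Python 3.11.15, pandas 2.3.3, numpy 2.4.6 and matplotlib 3.10.9.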

Additional observations from a re-analysis of the deposited data

Results flagged for a closer look

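Dio2 and Tmem176a were singled out because the test of the difference between the lines called them. The change between 48 and 24 h in K-ras minus that in NIH3T3 was 3.56 for Dio2 and 2.24 for Tmem176a on the log2 scale (limma, adjusted p = 0.0452 for each). Both K-ras arrays at 48 h were above both at 24 h in each gene. The NIH3T3 changes were -0.41 for Dio2, whose arrays at 48 h (-0.56 and -0.70) both lay below those at 24 h (-0.45 and 0.00), and -0.52 for Tmem176a. Neither NIH3T3 change passed by limma (adjusted p = 0.591 and 0.218). Of the 3 probe sets of Dio2 the weakest gave 0.11 in K-ras, and with the mean of all probe sets the difference was 1.86 for Dio2 and 1.64 for Tmem176a.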

How the results depend on the processing

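With 2 arrays a side the calls depend on the fit, while many settings leave the log2 fold changes as they were by construction. The 6 called genes kept a positive change in all 84 values over 14 alternatives, between 1.02 and 3.47, and passed the threshold in 46 of them. The other 155 named genes changed sign in 14 of 2159 values, in 8 genes. Neither count measures how stable the changes are. Settings that keep the compared K-ras arrays as they are return the same log2 fold change. Leaving out 1 array cannot change the sign of a gene whose arrays do not overlap, as in the 6 called genes. For these 6 only quantile normalisation and the mean of all probe sets could have changed a sign. For 13 lists the counts of members with arrays apart and the medians were also computed after quantile normalisation and with the mean of all probe sets, and every median kept its sign. With these in turn, 18 and 14 cholesterol genes and 15 and 18 collagens lay above, and 22 and 24 nucleolar genes and 26 and 29 DNA replication genes below. Without signal over background, absence of a gene cannot be judged. Calls are given for K-ras, NIH3T3 and their difference, in this order; as reported they were 6, 167 and 2. All 28 arrays gave 0, 0 and 0 (444, 2477 and 893 at an unadjusted p under 0.05). Only the arrays of the groups compared gave 0, 0 and 0 (1997, 1870 and 1337). Leaving out K-ras at 72 h, with its array that stands apart, gave 8, 356 and 3. Quantile normalisation gave 56, 203 and 1. The mean of all probe sets gave 10, 168 and 0, every probe set by itself 8, 217 and 0, the filter on genes of low spread 6, 230 and 0, and robust eBayes 6, 162 and 2. Of 2 alternatives chosen after seeing the data, the fit to 22 arrays in place repeated the reported one. Each array it adds is alone in its group and holds no estimate of spread. The other, the 6 K-ras arrays at 25 mM and 24, 48 and 72 h alone, gave 0 (729 at an unadjusted p under 0.05). Leaving out 1 array at a time gave between 0 and 35 for K-ras, between 2 and 1696 for NIH3T3 and between 0 and 26 for the difference; the lone array left in a group was assumed to vary like the others. Fewer arrays or genes enter some of these fits; the cause of the other shifts was not tested. The highest counts came without replicate 2 at 48 h of K-ras (35), and without that of NIH3T3 (1696 and 26). Same-numbered K-ras arrays deviated together at a correlation of 0.10, with 1 such value to judge by, so the numbers were not taken as pairs. A replicate block gave 6, 78 and 0 calls, which lowers the NIH3T3 count and ends the calls of a difference.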

Other observations

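These genes and lists were chosen after their values were seen. Dkk3, in the list of Wnt inhibitors, is the only member of these lists that was called. Of 14 acute-phase and innate defence genes measured, 9 had both K-ras arrays at 48 h above both at 24 h and 0 below, with a median of 0.71 (between 0.40 and 1.01 when any 1 array was left out), beside 19.8% and 22.2% over all genes. Ptx3, a soluble pattern recognition protein, was at 2.84 and 1.99 at 48 h, against -0.16 and -0.48 at 24 h. Hp, haptoglobin, was at 3.53 and 1.53, against -0.29 and 0.23, and Serpina3n, a protease inhibitor of the acute phase, at 4.06 and 1.46, against 0.08 and -0.28. C1s1 and C1ra encode the proteases of the first complement component. C1s1 was at 4.59 and 2.94, against -0.06 and 0.03 (log2 fold change 3.78 ± 0.98, adjusted p = 0.467), and C1ra at 3.02 and 1.58, against 0.11 and 0.15. Replicate 1 at 48 h was the higher array in all 5 genes.

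Dact1, a regulator of Wnt signalling inside the cell, was at 3.86 and 2.63 at 48 h, against 0.98 and 1.42 at 24 h (2.04 ± 0.38, adjusted p = 0.143), and Sfrp2, a secreted Wnt antagonist, at 2.56 and 1.16, against -0.16 and 0.35. The list of 17 Wnt inhibitors that holds both, and Dkk3, had 4 above and 2 below with a median of 0.00. Igfbp4, an IGF binding protein, was at -0.41 and -1.87, against -3.08 and -3.90 (2.35 ± 0.48, adjusted p = 0.251), while 2 of 7 IGF binding proteins lay above and 1 below. Of 19 imprinted genes, which form a growth-linked set in embryonic cells, 8 lay above and 2 below with a median of 0.11 (between 0.05 and 0.20 when any 1 array was left out). The lowest change of all genes was that of U90926, a gene with a clone-like symbol, at -0.86 and 0.81, against 3.18 and 3.23 (-3.23 ± 0.59, adjusted p = 0.143). Ogt, the enzyme that adds single GlcNAc sugars to proteins, was at 1.72 and 0.99, against -1.70 and -0.87, and the weakest of its 5 probe sets gave -0.14.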
